A study of Mus musculus with 8 samples.

Results

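The collagen genes of mouse liver were examined one by one. Every gene whose symbol reads Col, a type number, the letter a and a chain number was taken, which gave 44 of the 55450 genes counted. The rule used symbols and no measured value, and pseudogenes or collagen-like genes with other names were not members. Single-cell RNA-seq had been done on the livers of wild-type C57BL/6 mice, with 1 library per mouse. The 2 control mice received a normal diet and water. The 3 HFD+F+CCl4 mice received a high-fat diet, fructose solution and intraperitoneal CCl4, a toxin that injures hepatocytes, and the 3 WD+F+CCl4 mice received a western diet with the same fructose and CCl4. Diets lasted 16 weeks, and the starting age was not given in the sources used here. Whole liver was perfused, digested with collagenase, papain and DNase, and freed of red cells and dead cells before capture, so the cell types sampled are those that survived these steps. The 2 treated groups shared fructose and CCl4, no mice received diet alone, and the parts of diet, fructose and CCl4 in a difference from control cannot be told apart. Values are given below in the order of replicate number within each group.

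Collagens are secreted or membrane-bound proteins whose chains wind into a triple helix, which needs glycine at the start of each Gly-X-Y triplet of residues. Fibrillar types form the cross-linked fibres of scar, type IV forms the sheet of basement membranes, type VI forms beaded filaments, and FACIT collagens decorate fibrils. In injured liver, hepatic stellate cells and portal fibroblasts that turn into myofibroblasts are known as the main makers of fibrillar collagen, while endothelial cells and bile duct cells make basement membrane collagen.

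The repeat that defines the family could be read directly in the coding exons of the reference. One stretch is shown for each of 4 members on which the results below turn, a fibrillar chain of type I, one of type III, a basement membrane chain and a membrane-bound chain. Each is given 5′ to 3′ on the coding strand of GRCm38 with GENCODE vM21 exons, and capitals mark glycine codons (GGN), which begin each triplet of codons. They are exon 7 of Col1a1 (chr11:94939697-94939741, plus strand), exon 6 of Col3a1 (chr1:45325360-45325413, plus strand), exon 3 of Col4a1 (chr8:11247006-11247095, minus strand) and exon 28 of Col13a1 (chr10:61863941-61864003, minus strand).
Col1a1: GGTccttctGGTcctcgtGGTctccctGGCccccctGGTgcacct
Col3a1: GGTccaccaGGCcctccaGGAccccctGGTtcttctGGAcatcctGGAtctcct
Col4a1: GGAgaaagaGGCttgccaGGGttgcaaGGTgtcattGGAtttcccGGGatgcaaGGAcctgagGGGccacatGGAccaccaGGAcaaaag
Col13a1: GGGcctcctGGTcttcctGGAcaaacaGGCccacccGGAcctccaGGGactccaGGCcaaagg
The Col3a1 exon was 54 bases long, or 6 Gly-X-Y triplets. Such 54-base exons were 21 of the 51 coding exons of Col1a1, 24 of 52 in Col1a2 and 24 of 51 in Col3a1, but 1 of 47 in Col4a2. The longest uninterrupted Gly-X-Y run of a member measured 216 to 344 triplets in the fibrillar class, against 39 to 66 in the basement membrane class, 40 to 56 in the transmembrane class and 30 in both multiplexins. Col4a1 and Col4a2 lie head to head on chromosome 8 (11198423 to 11312826 on the minus strand and 11312805 to 11449287 on the plus strand), and their annotated bodies overlap by 22 bases. Of the 44 members, 15 overlapped another annotated gene on their own strand and 18 on the other strand. How reads in such stretches were assigned was not given in the sources used here.

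Cells had to show over 500 genes with mitochondrial transcripts below 25%, and 80474 of 88581 met both limits, 14956 of control, 31956 of HFD+F+CCl4 and 33562 of WD+F+CCl4 mice. A UMI is a molecular tag that counts 1 captured mRNA. The shallowest library, control replicate 2, had 5305581 kept UMIs and a median of 992.5 per cell, and the deepest, WD+F+CCl4 replicate 3, had 63878061 and a median of 4278. In control replicate 2, 52.7% of cells fell in clusters that no marker list named. Barcode sequences seen in more than 1 library numbered 732. Cell types were clusters of cells made without the collagen genes and named from marker genes, none a collagen, and levels between types are descriptions with no test.

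Collagen mRNA was a small part of the liver libraries. Over all mice together, the scarce HSC-like cells held more of it than any other cell type. The 44 members gave 110432 UMIs, 0.0300% of all kept UMIs, and 43 members had at least 1 UMI, with Col9a1, a cartilage FACIT chain, at 0. A count of 0 allows up to 3 UMIs over all kept cells. The 12 members with most UMIs were Col3a1 with 19098, Col4a1 with 18245, Col4a2 with 15119, Col1a2 with 14320, Col1a1 with 13105, Col6a3 with 4440, Col14a1 with 3936, Col5a2 with 2831, Col18a1 with 2766, Col13a1 with 2761, Col6a1 with 2597 and Col27a1 with 1932. The type I, III and IV chains thus led, and 10 members had under 20 UMIs. UMIs from the 3′ end are not scaled by length. HSC-like cells, the cluster with hepatic stellate and fibroblast markers, held 54.5% of collagen UMIs although they were 246 of the 80474 cells. Endothelial cell-like cells held 25.7%, monocyte-macrophage-like cells 7.97%, cholangiocyte-like cells 3.22% and hepatocyte-like cells 0.470%. HFD+F+CCl4 replicate 1 gave 49231 of the HSC-like collagen UMIs. HSC-like cells held fewer than endothelial cell-like cells in control replicate 1 (430 against 1047) and WD+F+CCl4 replicate 3 (1480 against 13743). Monocyte-macrophage-like cells held more in WD+F+CCl4 replicate 1 (437 against 148). Of the named types, T and NK cell-like cells held most in control replicate 2 (211 against 5 in HSC-like cells). Clusters that no marker list named held more there, 746 of its 1253 collagen UMIs, and 951 of 4139 in control replicate 1. In the other mice HSC-like cells held most.

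**Figure D1:**
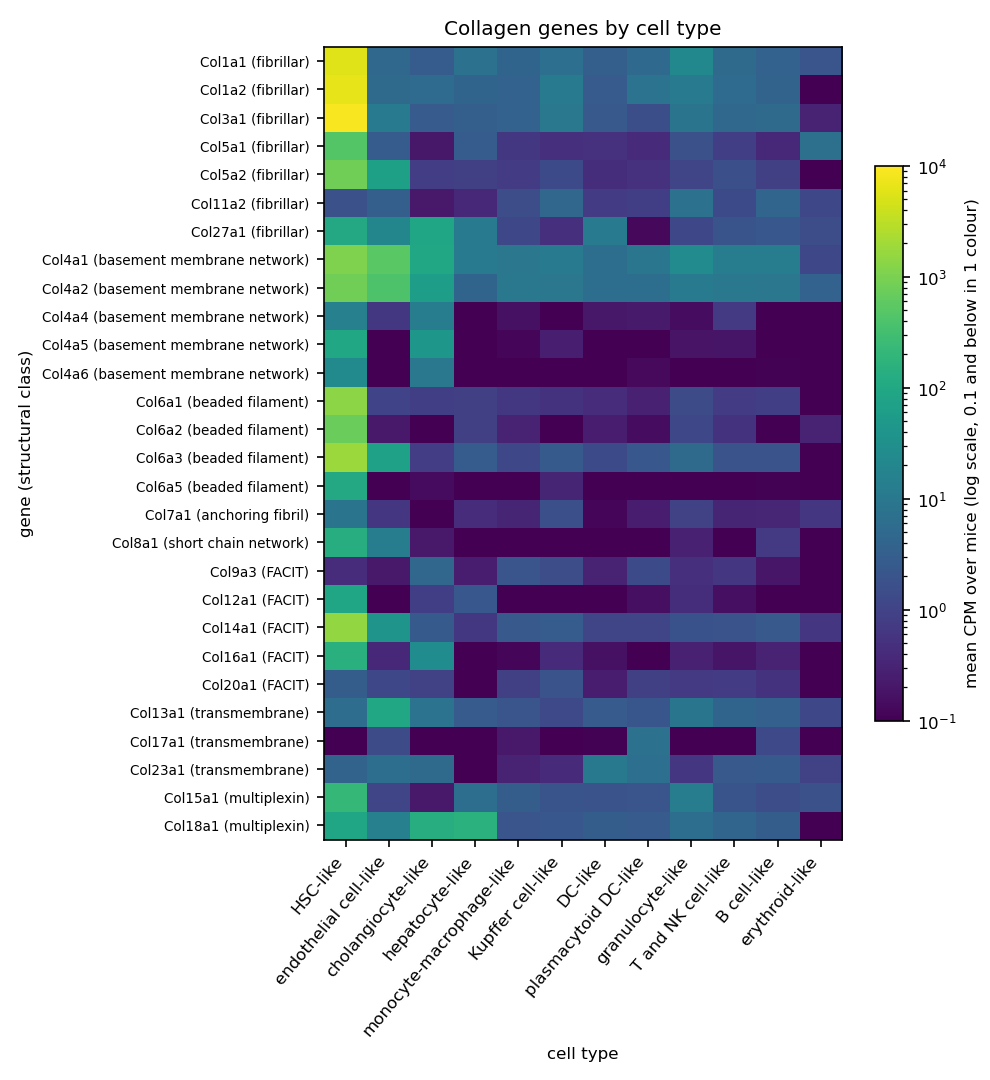
Mean CPM (counts per 1000000 UMIs of that cell type, log colour scale) of each member with at least 100 UMIs, in rows, across 12 cell types, in columns, averaged over mice with at least 20 cells of the type. The HSC-like column is the brightest for most rows, Col13a1 is brightest in endothelial cell-like cells, Col18a1 in hepatocyte-like cells and Col17a1 in plasmacytoid DC-like cells.

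The family total differed widely between mice of the same group. In CPM (counts per 1000000 kept UMIs of the mouse), all members together reached 116 and 236 in control mice, 1386, 165 and 99.0 in HFD+F+CCl4 mice and 18.5, 62.8 and 298 in WD+F+CCl4 mice. HFD+F+CCl4 replicate 1 stood far above the rest and gave 68143 of the 110432 UMIs, and every pair of groups overlapped. The fibrillar class of 11 members summed to 22.3 and 21.9 CPM in control, 830, 84.4 and 54.2 in HFD+F+CCl4 and 5.63, 23.6 and 44.5 in WD+F+CCl4 mice. Each HFD+F+CCl4 mouse lay above both controls for that class, while the WD+F+CCl4 mice lay on either side of them. The basement membrane class of 6 members summed to 41.8 and 123 CPM in control, 301, 33.7 and 20.1 in HFD+F+CCl4 and 4.18, 22.3 and 208 in WD+F+CCl4 mice, and the groups overlapped. The number of cells captured also differed between mice. HSC-like cells numbered 17 and 1 in control, 158, 38 and 11 in HFD+F+CCl4 and 3, 4 and 14 in WD+F+CCl4 mice, and endothelial cell-like cells 533 and 77, 1482, 207 and 36, and 9, 25 and 1425. Among HFD+F+CCl4 and among WD+F+CCl4 mice, the mice with most endothelial cell-like cells had the highest basement membrane sums, but of the controls the one with fewer such cells had the higher sum. In sums over all kept cells, fewer cells of a type and less RNA per cell cannot be told apart, and the part of cell capture in each result below was not tested unless a value within a cell type is given.

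**Figure D2:**
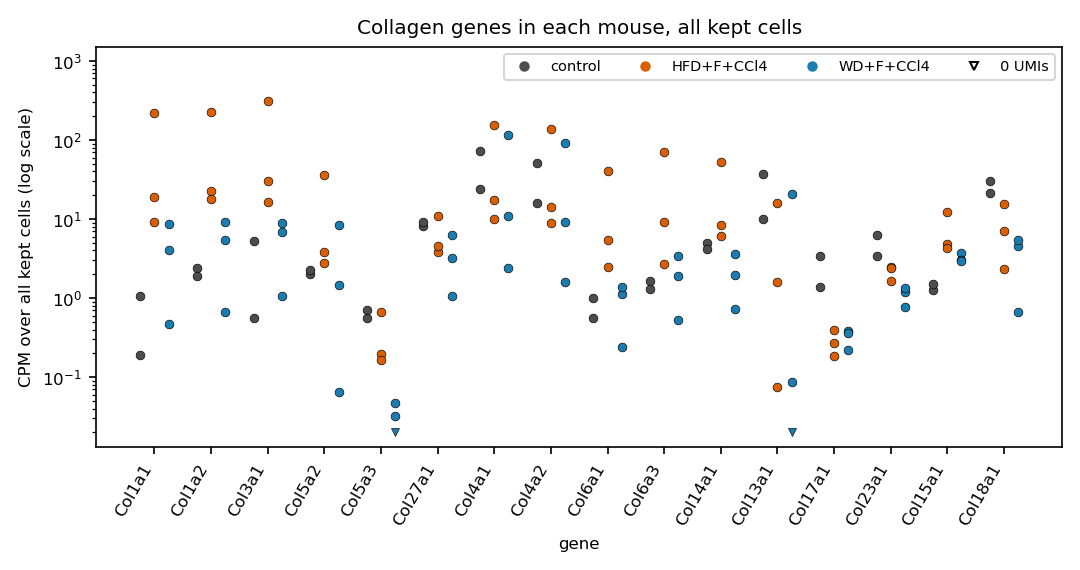
CPM over all kept cells (log axis) of the 12 members with most UMIs and 4 further members past the test's threshold, 1 point per mouse, grouped as control (n = 2), HFD+F+CCl4 (n = 3) and WD+F+CCl4 (n = 3), with triangles for mice at 0 UMIs. The highest Col1a1 point is HFD+F+CCl4 replicate 1 at 220.3 CPM, and both control points of Col17a1 lie above all 6 NASH points.

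Among fibrillar chains, Col1a1 and Col1a2, which together form type I collagen, were higher in every HFD+F+CCl4 mouse than in either control, without passing the test. Col1a1 stood at 1.06 and 0.188 CPM in control mice (38 and 1 UMIs), 220.3, 18.8 and 9.23 CPM in HFD+F+CCl4 mice and 0.465, 4.00 and 8.63 CPM in WD+F+CCl4 mice. The first treated group did not overlap control and the second did. By edgeR's quasi-likelihood test over all genes, the log2 fold change against control was 6.59 ± 1.98 (SE) in HFD+F+CCl4 mice (adjusted p = 0.0558) and 2.51 ± 1.72 in WD+F+CCl4 mice (adjusted p = 0.34). Col1a2 stood at 2.43 and 1.88 CPM in control, 228, 22.8 and 17.7 CPM in HFD+F+CCl4 and 0.673, 5.42 and 9.13 CPM in WD+F+CCl4 mice, again with all HFD+F+CCl4 mice above both controls. Its log2 fold changes were 5.29 ± 1.58 (edgeR, adjusted p = 0.0544) and 1.31 ± 1.35 (adjusted p = 0.536). In mice where both chains could be compared, the Col1a1 to Col1a2 ratio of UMIs was 0.437 to 0.966 (n = 7). Without HFD+F+CCl4 replicate 1 the HFD+F+CCl4 log2 fold changes were 4.37 for Col1a1 and 3.41 for Col1a2.

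Col3a1, the chain of type III collagen that forms thin reticular fibres, was the member with most UMIs. It stood at 5.25 and 0.565 CPM in control mice, 315, 30.6 and 16.4 CPM in HFD+F+CCl4 mice and 1.06, 6.88 and 8.78 CPM in WD+F+CCl4 mice. All HFD+F+CCl4 mice lay above both controls and WD+F+CCl4 mice lay among and above them. The log2 fold changes were 5.07 ± 1.68 (edgeR, adjusted p = 0.073) and 0.81 ± 1.40 (adjusted p = 0.731), and the former was 3.02 without HFD+F+CCl4 replicate 1. The ratio of Col3a1 to Col1a1 UMIs was 4.95 in control replicate 1 and 1.02 to 2.28 in the NASH mice. Control replicate 2, with 1 Col1a1 UMI, was not included.

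Col5a2, a chain of the type V collagen that starts fibrils, stood at 2.01 and 2.26 CPM in control, 36.3, 3.85 and 2.80 CPM in HFD+F+CCl4 and 0.0641, 1.46 and 8.44 CPM in WD+F+CCl4 mice (edgeR log2 fold change 2.75 ± 1.78 for HFD+F+CCl4, adjusted p = 0.319). Its partner Col5a3 behaved differently and fell in WD+F+CCl4 mice. Col5a3 had 25 and 3 UMIs in control, 33, 10 and 9 in HFD+F+CCl4 and 2, 0 and 3 in WD+F+CCl4 mice. In CPM that was 0.698 and 0.565, then 0.671, 0.193 and 0.167, then 0.0321, 0 and 0.0470. All WD+F+CCl4 mice lay below all others, a difference of −4.26 ± 0.93 log2 from control (edgeR, adjusted p = 0.0172), on 5 UMIs in that group. The call was lost without control replicate 1 (edgeR, −3.88, adjusted p = 0.134). Against control it was −0.89 ± 0.81 in HFD+F+CCl4 mice (adjusted p = 0.483). Col27a1, a fibrillar chain best known from cartilage, stood at 8.21 and 9.24 CPM in control, 10.8, 3.77 and 4.56 CPM in HFD+F+CCl4 and 1.06, 3.17 and 6.36 CPM in WD+F+CCl4 mice. Every WD+F+CCl4 value was under both controls, but the log2 fold change of −1.14 ± 0.67 did not pass (edgeR, adjusted p = 0.269).

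Within HSC-like cells the type I and III chains took a far larger share of mRNA, and this share was higher in most NASH mice than in control replicate 1. All 13 stellate and fibroblast markers were detected in these cells. Collagens made 0.618% of their UMIs in control replicate 1, 4.19%, 1.97% and 3.00% in HFD+F+CCl4 mice and 0.494%, 1.93% and 1.96% in WD+F+CCl4 mice, while control replicate 2 had 1 such cell with 5 collagen UMIs of 1669. Col3a1 stood at 1941 CPM in control replicate 1, 12337, 5897 and 7453 CPM in HFD+F+CCl4 mice and 1668, 5458 and 5502 CPM in WD+F+CCl4 mice. Col1a1 stood at 374, then 8312, 2981 and 4085, then 701, 3078 and 3029 CPM in the same mice, and Col1a2 at 705, then 8755, 4034 and 7892, then 467, 4155 and 4563 CPM. WD+F+CCl4 replicate 1, with 3 cells, lay below control replicate 1 for Col3a1 and Col1a2, and all other NASH mice lay above it for all 3 chains. In control replicate 2 all 3 were at 0, which allows up to 1797 CPM. Only HFD+F+CCl4 replicates 1 and 2 held at least 20 HSC-like cells, so no contrast in these cells could be fitted and these values carry no test.

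**Figure D3:**
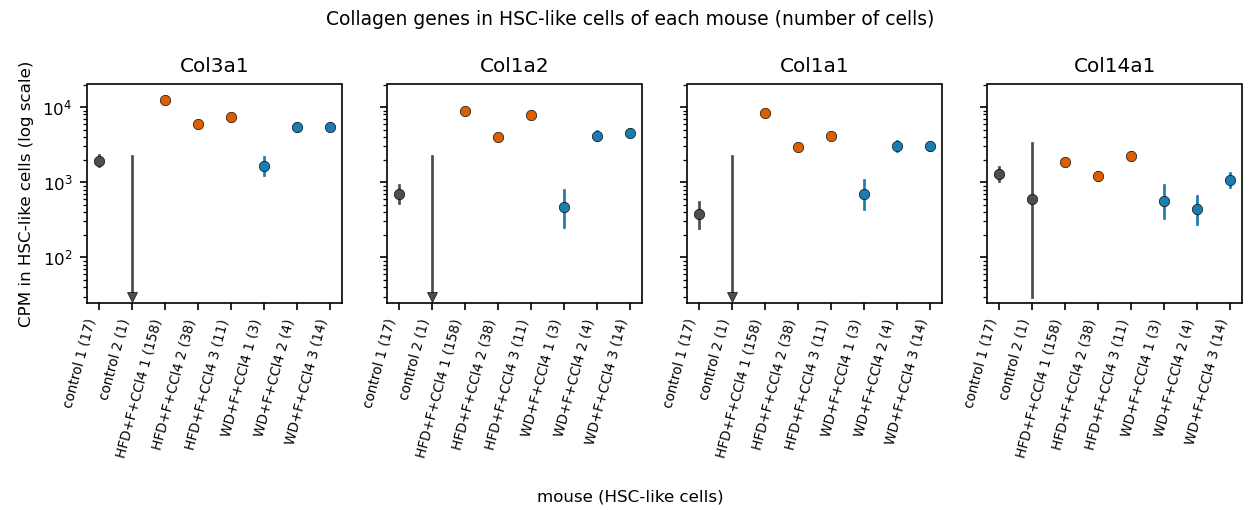
CPM (log axis) of Col3a1, Col1a2, Col1a1 and Col14a1 in HSC-like cells of each mouse, with 95% Poisson intervals that cover counting error only, and triangles for 0 UMIs. Col3a1 is at 1941 CPM in control replicate 1 and 12337 CPM in HFD+F+CCl4 replicate 1, while Col14a1 is at 1280 and 1843 CPM in the same mice.

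The HSC-like cells of the groups were not alike in other ways. Summed T cell markers were 1999 and 1797 CPM in the control HSC-like cells and 0 to 567 CPM in those of NASH mice, and summed monocyte and macrophage markers reached 9442 and 7894 CPM in WD+F+CCl4 replicates 1 and 2. Acta2, the actin of smooth muscle and myofibroblasts, was at 0 in both controls, at 2344, 135 and 1370 CPM in HFD+F+CCl4 and at 0, 812 and 397 CPM in WD+F+CCl4 mice, whereas Lrat, which stores vitamin A in quiescent stellate cells, was at 791 CPM in control replicate 1 and 340 to 774 CPM in NASH mice. Their part in the collagen values was not tested. Sub-clusters differed as well. Col3a1 was highest, at 15613 CPM, in 92 cells that no marker list named, 76 of them from HFD+F+CCl4 replicate 1. It was at 11515 CPM in another 17 unnamed cells and at 11401 CPM in 28 cells with mesothelial markers. It was at 392 CPM in 27 smooth muscle-like cells, which instead held 690.5 CPM of Col18a1 and 537 CPM of Col4a1. Those 27 cells all came from HFD+F+CCl4 replicate 1.

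Of the basement membrane chains, Col4a1 and Col4a2 join as the common type IV network. Over all mice together, endothelial cell-like cells held 69.0% and 67.9% of their UMIs. In single mice the share ran from 11.3% to 88.8% for Col4a1 and from 4.95% to 85.7% for Col4a2. Over all kept cells Col4a1 stood at 24.1 and 72.4 CPM in control, 155, 17.4 and 9.99 CPM in HFD+F+CCl4 and 2.42, 11.0 and 114 CPM in WD+F+CCl4 mice. Col4a2 stood at 15.9 and 50.7, then 136, 14.1 and 8.99, then 1.62, 9.26 and 91.7 CPM. In both chains HFD+F+CCl4 replicate 1 and WD+F+CCl4 replicate 3, which had most endothelial cell-like cells, were highest, and groups overlapped. The log2 fold changes against control were 0.41 ± 1.56 and 0.76 ± 1.62 in HFD+F+CCl4 mice (edgeR, adjusted p = 0.888 and 0.787), and 0.03 ± 1.55 and 0.26 ± 1.59 in WD+F+CCl4 mice. Without HFD+F+CCl4 replicate 1 the first pair turned to −1.51 and −1.21. The head-to-head chains kept a narrow ratio, with Col4a1 at 1.11 to 1.52 times Col4a2 across all 8 mice.

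Within endothelial cell-like cells, type IV levels varied less between mice. Col4a1 stood at 394 and 376 CPM in control, 846, 456 and 408 CPM in HFD+F+CCl4 and 768, 354 and 842 CPM in WD+F+CCl4 mice, and Col4a2 at 253 and 256, then 752, 352 and 340, then 202, 261 and 653 CPM. All HFD+F+CCl4 mice were above both controls for either chain and WD+F+CCl4 mice overlapped them. For Col4a1 the log2 fold changes were 0.57 ± 0.46 in HFD+F+CCl4 (edgeR, adjusted p = 0.69) and 0.67 ± 0.50 in WD+F+CCl4 mice (adjusted p = 0.672), and for Col4a2 0.93 ± 0.50 (adjusted p = 0.475) and 0.90 ± 0.53 (adjusted p = 0.575). WD+F+CCl4 replicate 1, with 9 cells, did not enter. By edgeR 0 of 11 members tested in these cells passed against control in either model, beside 1.71% of all genes in HFD+F+CCl4 and 1.45% in WD+F+CCl4 mice, with 1 member at an unadjusted p under 0.05 in each and 0 called by DESeq2. Those were Col8a1, a short chain collagen of vessel walls, at 2.12 ± 0.88 in HFD+F+CCl4 mice (adjusted p = 0.33), and Col5a2 at 1.67 ± 0.65 in WD+F+CCl4 mice (adjusted p = 0.316).

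The make-up of the endothelial cell-like cells differed between mice at the same time. Summed sinusoidal markers were 7939 and 7645 CPM in control, 6907, 3934 and 1603 CPM in HFD+F+CCl4 and 4124, 1290 and 9360 CPM in WD+F+CCl4 mice, and summed vascular markers 1239 and 342, then 1543, 3903 and 5093, then 8450, 6117 and 1541 CPM. Summed T cell markers were 936 and 957 CPM in control and 0 to 232 CPM in NASH mice. Collagens separated the sub-clusters. The 2245 sinusoidal cells held Col4a1 at 1023 CPM and Col13a1 at 179 CPM, with Col8a1 at 1.21 CPM. Of the vascular sub-clusters, one of 132 cells held Col8a1 at 297 CPM and Col5a2 at 250.1 CPM, and the other of 265 cells held Col6a3 at 293 CPM and Col14a1 at 134 CPM with Col8a1 at 0. A sub-cluster of 626 cells with T cell markers contained 504 and 70 of the control cells, and its Col4a1 level was 409 and 371 CPM in control and 722 CPM in WD+F+CCl4 replicate 3. In sinusoidal cells it was 1090 CPM in HFD+F+CCl4 replicate 1, 823 CPM in replicate 2 and 989 CPM in WD+F+CCl4 replicate 3. Control and NASH cells therefore lay mostly in different sub-clusters, and the part of this in the Col4a1 values was not tested.

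**Figure D4:**
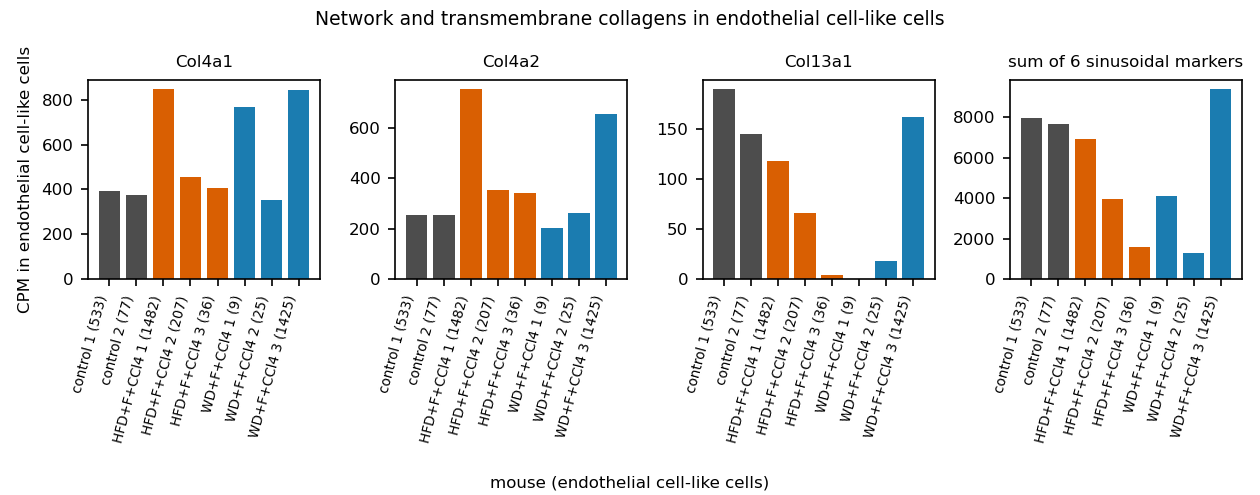
Levels in endothelial cell-like cells of each mouse (CPM, bars from 0, cell numbers below) of Col4a1, Col4a2, Col13a1 and the sum of 6 sinusoidal markers. Col4a1 lies between 354 and 846 CPM in all mice, while Col13a1 is at 0, 4.25 and 18.6 CPM in the 3 mice with fewest such cells.

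The minor type IV chains, which build specialised basement membranes, had large shares of their UMIs in bile duct cells. Cholangiocyte-like cells held 79.2% of Col4a3 UMIs, 65.0% of Col4a6, 56.4% of Col4a5 and 46.6% of Col4a4. Their mean levels there were 7.79 ± 4.11 CPM for Col4a3 (SD, n = 7 mice) and 43.9 ± 23.1 CPM for Col4a5. In mean CPM, HSC-like cells of HFD+F+CCl4 replicates 1 and 2, the 2 mice with enough of them, were higher than cholangiocyte-like cells for Col4a5 (101 ± 50.7 CPM, SD), Col4a6 (23.6 against 10.1 CPM) and Col4a4 (14.9 against 13.4 CPM) and lower for Col4a3 (2.13 CPM). Col4a1 in cholangiocyte-like cells stood at 58.6 and 45.2 CPM in control, 130.2, 122 and 112 CPM in HFD+F+CCl4 and 58.0, 119 and 109 CPM in WD+F+CCl4 mice, where the first WD+F+CCl4 mouse had 2 cells and did not enter the fit. All NASH mice that entered lay above both controls. Control replicate 2 had 31 such cells with 44278 UMIs of all genes, and its value rests on fewer counts than the floor of 3. It therefore does not firmly place that mouse below the NASH mice. The log2 fold changes were 1.18 ± 0.34 (edgeR, adjusted p = 0.23) and 1.14 ± 0.35 (adjusted p = 0.21). In these cells 0 of 9 members passed in either model by edgeR or DESeq2. Of all genes, edgeR called 0.469% and 0.584% and DESeq2 0.833% and 1.04%. At an unadjusted p under 0.05 were 1 and 2 members (11.1% and 22.2%, beside 9.13% and 11.0% of genes).

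Beaded filament collagen followed the fibrillar chains. Col6a1 stood at 1.00 and 0.565 CPM in control, 40.4, 5.49 and 2.46 CPM in HFD+F+CCl4 and 0.240, 1.14 and 1.38 CPM in WD+F+CCl4 mice, and Col6a3 at 1.65 and 1.32, then 69.5, 9.23 and 2.69, then 0.529, 1.92 and 3.38 CPM. Each HFD+F+CCl4 mouse exceeded both controls, and WD+F+CCl4 mice overlapped control. The log2 fold changes against control were 4.21 ± 1.37 for Col6a1 and 4.12 ± 1.45 for Col6a3 in HFD+F+CCl4 mice (edgeR, adjusted p = 0.0699 and 0.0867). Type VI chains join in equal number, and the ratio of Col6a1 to Col6a2 was 1.42 to 2.48 in the 5 mice where it could be taken. HSC-like cells held 89.8% of Col6a1, 91.0% of Col6a2 and 76.6% of Col6a3 UMIs. In those cells Col6a3 was at 230.1 CPM in control replicate 1, at 770.3 to 2479.7 CPM in HFD+F+CCl4 and at 300.3 to 1152 CPM in WD+F+CCl4 mice.

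Col14a1, a FACIT chain of portal and perivascular fibroblasts, was the fibril-associated member with most UMIs. It stood at 4.94 and 4.15 CPM in control, 52.9, 8.45 and 6.13 CPM in HFD+F+CCl4 and 0.737, 1.97 and 3.62 CPM in WD+F+CCl4 mice. The HFD+F+CCl4 mice all lay above control and the WD+F+CCl4 mice all below it, with log2 fold changes of 2.29 ± 1.01 (edgeR, adjusted p = 0.154) and −0.97 ± 0.93 (adjusted p = 0.5). In HSC-like cells, where 73.9% of its UMIs lay, it stood at 1280.3 and 599 CPM in control (the second from 1 UMI), 1843, 1219 and 2248 CPM in HFD+F+CCl4 and 567, 434 and 1071 CPM in WD+F+CCl4 mice. All WD+F+CCl4 mice and HFD+F+CCl4 replicate 2 were under control replicate 1, unlike Col3a1 and Col1a1, which were higher than that mouse in WD+F+CCl4 replicates 2 and 3. By sub-cluster, Col14a1 was highest, at 2734 CPM, in 51 cells that also carried T cell markers. Of these, 15 and 1 came from the control mice, 15, 11 and 4 from HFD+F+CCl4 mice and 1, 0 and 4 from WD+F+CCl4 mice. Col14a1 was 136 CPM in smooth muscle-like cells.

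Of the 3 transmembrane collagens tested, chains that hold cells to matrix or basement membrane, Col17a1 and Col23a1 fell. Col17a1, known from the hemidesmosomes of epithelium, had 49 and 18 UMIs in control, 9, 14 and 21 in HFD+F+CCl4 and 24, 10 and 23 in WD+F+CCl4 mice, which was 1.37 and 3.39 CPM, then 0.183, 0.271 and 0.389 CPM, then 0.385, 0.219 and 0.360 CPM. Both controls lay above all 6 NASH mice, and Col17a1 fell by 2.83 ± 0.56 log2 in HFD+F+CCl4 mice (edgeR, adjusted p = 0.0142) and by 2.59 ± 0.56 in WD+F+CCl4 mice (adjusted p = 0.0167). Plasmacytoid DC-like cells, the interferon-making dendritic cells, held 48.8% of its UMIs. There it stood at 18.7 and 19.1 CPM in control (37 and 8 UMIs), at 0, 4.61 and 3.88 CPM in HFD+F+CCl4 (0, 4 and 3 UMIs) and at 7.29, 3.20 and 5.34 CPM in WD+F+CCl4 mice (18, 3 and 9 UMIs). The value of 0, from 21 cells, allows up to 44.2 CPM. All other NASH values lay below control in this cell type too. In the same cells summed hepatocyte markers were 1008 and 1258 CPM in control and 65.2 to 854 CPM in NASH mice, and summed T cell markers 910.3 and 1394 CPM and 245 to 427 CPM, and their part in the Col17a1 values was not tested. Without plasmacytoid DC-like cells, an alternative chosen after seeing the data, the changes over the remaining cells were −1.90 (edgeR, adjusted p = 0.126) and −2.43 (adjusted p = 0.0618). Without control replicate 2 the calls were also lost, at −2.19 (adjusted p = 0.073) and −1.94 (adjusted p = 0.0887).

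Col23a1 had 121 and 33 UMIs in control, 80, 126 and 130 in HFD+F+CCl4 and 48, 55 and 85 in WD+F+CCl4 mice, or 3.38 and 6.22 CPM, then 1.63, 2.44 and 2.41 CPM, then 0.769, 1.20 and 1.33 CPM. The 3 groups did not overlap, with control highest and WD+F+CCl4 lowest. It fell by 1.89 ± 0.41 log2 in WD+F+CCl4 mice (edgeR, adjusted p = 0.0169), and the HFD+F+CCl4 value was −0.96 ± 0.41 (adjusted p = 0.138). The WD+F+CCl4 call was lost without control replicate 2 (edgeR, adjusted p = 0.087) and likewise when replicate 1 (adjusted p = 0.0508) or replicate 2 (adjusted p = 0.0539) of the WD+F+CCl4 mice was left out. DC-like cells held 37.9% of Col23a1 UMIs, at 21.8 and 17.6 CPM in control, 5.91, 8.47 and 6.95 CPM in HFD+F+CCl4 and 5.25, 4.43 and 12.2 CPM in WD+F+CCl4 mice, again with both controls highest. Col13a1, found at cell adhesions, had 80.7% of its UMIs in endothelial cell-like cells over all mice together. In the 7 mice with Col13a1 UMIs it had 8.54% to 93.2% of them there, lowest in control replicate 2. It stood at 10.1 and 37.5 CPM in control, 15.9, 1.59 and 0.0741 CPM in HFD+F+CCl4 and 0, 0.0874 and 20.8 CPM in WD+F+CCl4 mice, highest in control replicate 2 and with the groups overlapping (edgeR log2 fold change −1.95 ± 2.38 in HFD+F+CCl4, adjusted p = 0.614). Within endothelial cell-like cells it stood at 189 and 145 CPM in control, 118, 65.7 and 4.25 CPM in HFD+F+CCl4 and 0, 18.6 and 161 CPM in WD+F+CCl4 mice. In sinusoidal cells alone it was 162 and 124 CPM in HFD+F+CCl4 replicates 1 and 2 and 195 CPM in WD+F+CCl4 replicate 3. In the vascular sub-clusters it was 22.3 to 125 CPM per mouse in one and 54.9 and 67.4 CPM in the other.

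The multiplexins, collagens of the outer basement membrane zone whose ends can be cut to endostatin-like fragments, lay on opposite sides of control. Col15a1 (chromosome 4, 47208161 to 47313167, plus strand) had 45 and 8 UMIs in control, 610, 248 and 231 in HFD+F+CCl4 and 230, 140 and 189 in WD+F+CCl4 mice. In CPM it stood at 1.26 and 1.51, then 12.4, 4.80 and 4.28, then 3.69, 3.06 and 2.96, so all 3 groups were apart, with HFD+F+CCl4 highest. Col15a1 rose by 2.45 ± 0.49 log2 in HFD+F+CCl4 mice (edgeR, adjusted p = 0.0142), and the WD+F+CCl4 value was 1.43 ± 0.47 (adjusted p = 0.0681). It was 1.97 (adjusted p = 0.0125) without HFD+F+CCl4 replicate 1, and the call was lost without control replicate 1 (2.46, adjusted p = 0.0777) or control replicate 2 (2.50, adjusted p = 0.0643). Unlike the fibrillar chains, Col15a1 had 27.8% of its UMIs in HSC-like cells and 37.5% in monocyte-macrophage-like cells, where it stood at 1.53 and 0 CPM in control, 5.85, 3.43 and 4.30 CPM in HFD+F+CCl4 and 2.26, 3.01 and 3.06 CPM in WD+F+CCl4 mice. Monocyte-macrophage-like cells were 35010 of the 80474 kept cells. Mean CPM was 2.93 in them, against 218 in HSC-like cells of HFD+F+CCl4 replicates 1 and 2. Granulocyte-like cells held 16.9%, at 2.40 and 0 CPM in control and 5.65 to 34.4 CPM in NASH mice. The zeros of control replicate 2 came from 231209 UMIs of monocyte-macrophage-like and 33985 UMIs of granulocyte-like cells. Each 0 allows up to 3 counts, so they do not place that mouse below the NASH mice in either cell type.

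Col18a1 (chromosome 10, 77052178 to 77166548, minus strand) stood at 21.1 and 30.2 CPM in control, 15.4, 7.02 and 2.33 CPM in HFD+F+CCl4 and 0.673, 4.57 and 5.49 CPM in WD+F+CCl4 mice. All NASH mice lay below both controls, with log2 fold changes of −1.56 ± 0.86 (edgeR, adjusted p = 0.243) and −2.65 ± 0.87 (adjusted p = 0.069). Of its UMIs, 20.8% lay in clusters that no marker list named. Those clusters held 2313 and 2197 control cells and 215 to 483 cells of each NASH mouse. The largest share, 31.4%, lay in cholangiocyte-like cells, at 0% to 83.7% in single mice. There Col18a1 was steady at 87.9 and 136 CPM in control, 141, 139.6 and 99.0 CPM in HFD+F+CCl4 and 171 and 119.5 CPM in WD+F+CCl4 replicates 2 and 3, where control and NASH values overlapped. In hepatocyte-like cells it stood at 443 and 0 CPM in control, 125, 172 and 148 CPM in HFD+F+CCl4 and 18.7, 30.8 and 162 CPM in WD+F+CCl4 mice, from 38 and 6 control cells.

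Summed over all kept cells, 31 members had enough counts to be tested. By edgeR 2 of the 31 passed in HFD+F+CCl4 mice against control, beside 18.9% of all 19787 genes tested, 1 of them higher (Col15a1, beside 9.63% of genes higher) and 1 lower (Col17a1, beside 9.22% lower). In WD+F+CCl4 mice 3 of 31 passed, beside 21.4% of genes, and all 3 were lower (Col5a3, Col23a1 and Col17a1, beside 10.3% of genes lower). Both counts lay below the share of all genes called. DESeq2, run as an alternative, called 10 members in HFD+F+CCl4 mice, adding Col1a1, Col3a1, Col5a1, Col6a1, Col6a2, Col6a3, Col8a1 and Col14a1, all higher, and gave Col1a2 no adjusted p. It called 25.7% of all genes there. In WD+F+CCl4 mice it called 6, adding Col15a1 (higher), Col18a1 and Col9a3 (both lower), beside 27.8% of all genes. The median log2 fold change of the tested members was 1.98 in HFD+F+CCl4 mice, with 21 of 31 above 0, beside a median of −0.01 over all genes, and 0.03 in WD+F+CCl4 mice, with 16 of 31 above 0, beside −0.06. By class, HFD+F+CCl4 medians were 2.69 for 8 fibrillar, 4.17 for beaded filament, 2.29 for FACIT, 1.46 for basement membrane and −1.95 for transmembrane members, and the WD+F+CCl4 medians were 0.29, 0.37, −0.75, 0.42 and −1.89. Control mice are shared by both comparisons. At an unadjusted p under 0.05 were 11 members in HFD+F+CCl4 (35.5%, beside 34.5% of genes) and 6 in WD+F+CCl4 mice (19.4%, beside 35.9% of genes).

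**Figure D5:**
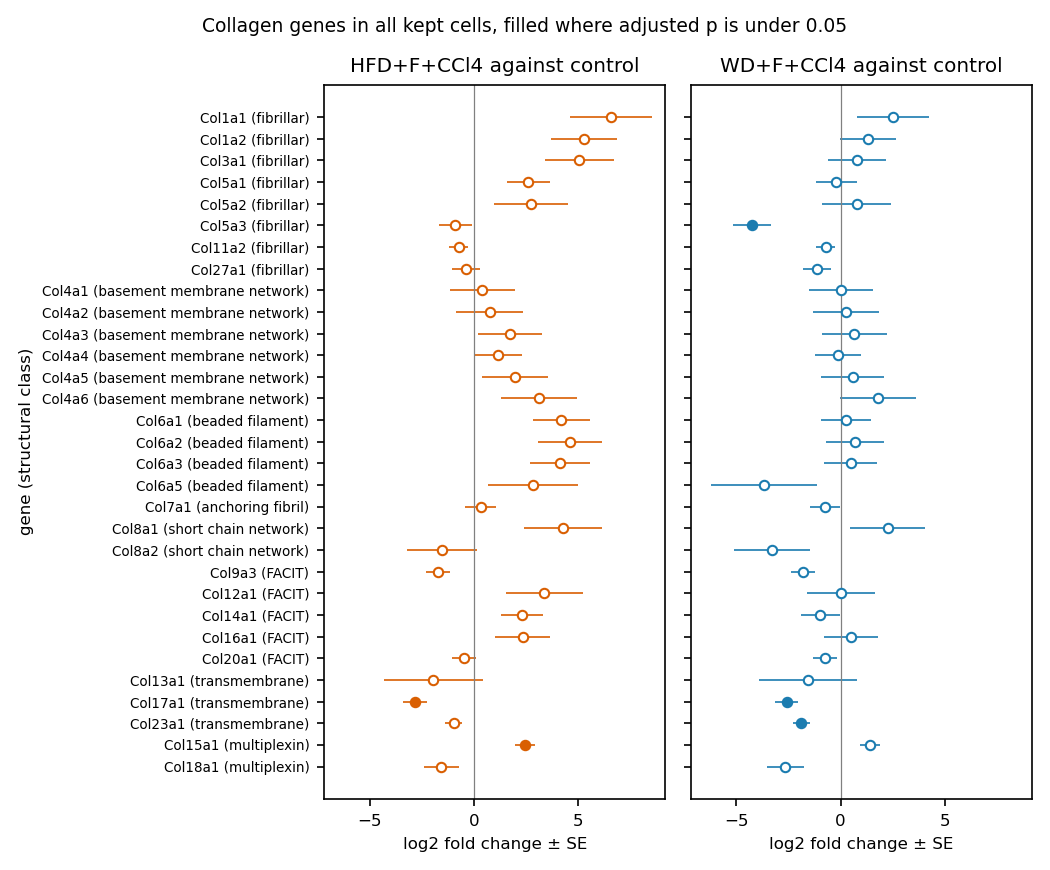
Log2 fold change against control with its SE (edgeR, all kept cells) for the 31 members tested, in either NASH model, filled where the adjusted p is under 0.05. Col1a1, Col1a2, Col3a1, Col6a1, Col6a2 and Col6a3 lie above 4 in HFD+F+CCl4 mice with long error bars, and the filled points are Col15a1, Col17a1, Col23a1 and Col5a3.

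By the order of the mice rather than the test, 12 of the 31 members were higher in every HFD+F+CCl4 mouse than in both controls, beside 20.9% of genes, and 4 were lower in every one, beside 28.7%. For WD+F+CCl4 mice 1 member was higher (20.1% of genes) and 8 were lower (33.5%). The 2 models also differed from each other in order, since 10 members were lower in every WD+F+CCl4 mouse than in every HFD+F+CCl4 mouse, beside 5.9% of genes, and 0 were higher (2.65%). Those 10 were Col1a1, Col1a2, Col3a1, Col5a1, Col5a3, Col6a1, Col6a2, Col14a1, Col15a1 and Col23a1. In the test of WD+F+CCl4 against HFD+F+CCl4, edgeR called 0 of 31 members and 0.0% of all genes, and 13 members had an unadjusted p under 0.05 (41.9%, beside 3.88% of genes), while DESeq2 called 4, which were Col14a1, Col6a1, Col6a2 and Col6a3, beside 0.232% of all genes. The log2 differences, WD+F+CCl4 minus HFD+F+CCl4, were −4.08 ± 1.39 for Col1a1, −4.26 ± 1.33 for Col3a1, −3.96 ± 1.10 for Col6a1 and −3.27 ± 0.89 for Col14a1 (SE, edgeR). HSC-like cells were 1.41%, 0.375% and 0.103% of kept cells in HFD+F+CCl4 mice and 0.0250%, 0.0406% and 0.119% in WD+F+CCl4 mice, and their part in these differences was not tested in these sums.

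With HSC-like cells left out, the tested members numbered 29. By edgeR 2 of 29 passed in HFD+F+CCl4 mice (beside 19.6% of genes), namely Col15a1 at 1.74 ± 0.32 (adjusted p = 0.01) and Col17a1 at −2.74 ± 0.53 (adjusted p = 0.0123). In WD+F+CCl4 mice 4 of 29 passed (beside 22.0% of genes), with Col15a1 now called at 1.34 ± 0.31 (adjusted p = 0.0212) beside Col5a3, Col23a1 and Col17a1. That call of Col15a1 was lost when either control or WD+F+CCl4 replicate 1 or 2 was left out and when only the 2 groups compared were fitted (edgeR, adjusted p = 0.055 to 0.0766). Each gene called with HSC-like cells was thus also called without them. Col1a1 was at 4.96 ± 2.03 (adjusted p = 0.128) and Col3a1 at 2.93 ± 1.38 (adjusted p = 0.179) in HFD+F+CCl4 mice, and the median of the members was 0.66, against 1.98 with those cells included.

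Fibrillar chains were also counted in immune cells, at levels that were alike in cell types of different origin. In monocyte-macrophage-like cells Col3a1 stood at 1.02 and 0 CPM in control, 20.3, 4.39 and 1.20 CPM in HFD+F+CCl4 and 0.323, 0.611 and 2.30 CPM in WD+F+CCl4 mice. In T and NK cell-like cells it stood at 0.885 and 0, then 28.0, 5.98 and 0.859, then 0, 0.238 and 1.79 CPM. Both were highest in HFD+F+CCl4 replicate 1 and next highest in replicate 2, as the sums over all cells were. Col1a1 showed the same, at 22.4, 5.57 and 0.845 CPM in monocyte-macrophage-like cells and 24.97, 9.10 and 1.03 CPM in T and NK cell-like cells of HFD+F+CCl4 mice. T and NK cell-like cells thus held these chains in a range like that of monocyte-macrophage-like cells. Whether either cell type made these chains was not tested.

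Tests within immune cells called few members. In the monocyte, macrophage and Kupffer cell-like clusters together, edgeR called 0 of 20 members in HFD+F+CCl4 mice (5.36% of genes called, 3 members at an unadjusted p under 0.05, 1 called by DESeq2, Col9a3, beside 9.8% of genes) and 1 of 20 in WD+F+CCl4 mice (6.87% of genes). That was Col18a1 at −4.63 ± 1.13 (adjusted p = 0.0433). Its level in monocyte-macrophage-like cells was 9.71 and 0 CPM in control, 3.41, 2.25 and 0.317 CPM in HFD+F+CCl4 and 0.0880, 0.191 and 0.485 CPM in WD+F+CCl4 mice. The 0 came from 195 cells with 231209 UMIs and allows up to 3 counts, so it does not place control replicate 2 below the NASH mice. Without control replicate 1 the difference was 5.91, and without control replicate 2 it was −5.11. The call was lost without HFD+F+CCl4 replicate 2 (edgeR, adjusted p = 0.0651) and without WD+F+CCl4 replicate 1 (adjusted p = 0.0892) or 2 (adjusted p = 0.114). It was also lost with the replicate block (edgeR, adjusted p = 0.233). Summed hepatocyte markers in those cells were 1150 and 1185 CPM in control, 543, 510.1 and 194 CPM in HFD+F+CCl4 and 73.2, 84.9 and 129 CPM in WD+F+CCl4 mice, and their part in the call was not tested. In lymphocyte-like cells edgeR called 0 of 14 members in HFD+F+CCl4 mice, beside 6.42% of genes. There 6 had an unadjusted p under 0.05 (42.9%, beside 24.8% of genes), and DESeq2 called 0, beside 9.70% of genes. In WD+F+CCl4 mice edgeR called 2 of 14 (11.6% of genes). Those were Col18a1 at −3.48 ± 0.73 (adjusted p = 0.0193) and Col27a1 at −2.70 ± 0.69 (adjusted p = 0.0371). In T and NK cell-like cells Col18a1 stood at 8.79 and 12.5 CPM in control, 5.48, 4.07 and 0.687 CPM in HFD+F+CCl4 and 0.742, 0.715 and 1.53 CPM in WD+F+CCl4 mice, and Col27a1 at 3.47 and 7.79, then 0, 0.957 and 1.37, then 0.247, 0.477 and 1.28 CPM. Both controls were highest for either gene. Both calls were lost without either control mouse and without WD+F+CCl4 replicate 1 or 2 (edgeR, adjusted p = 0.0599 to 0.0922 for Col18a1 and 0.093 to 0.143 for Col27a1), and that of Col27a1 also without replicate 2 of the HFD+F+CCl4 or replicate 3 of the WD+F+CCl4 mice. Summed hepatocyte markers in T and NK cell-like cells were 1280.5 and 1675 CPM in control, 749, 775 and 165 CPM in HFD+F+CCl4 and 90.5, 74.4 and 197 CPM in WD+F+CCl4 mice. Of the 2 clusters of this type, the one led by NK markers held 3942 and 737 control cells and 97 to 204 cells of each NASH mouse, and the one led by T cell markers 186 and 68 control cells and 448 to 1433 of each NASH mouse. The part of either in the calls was not tested. In hepatocyte-like cells WD+F+CCl4 could be set against HFD+F+CCl4 mice, where edgeR called 0 of 4 members, beside 0.0% of genes, DESeq2 called 0 and 2 had an unadjusted p under 0.05. Between the models edgeR and DESeq2 also called 0 members in the endothelial, cholangiocyte, lymphocyte and macrophage sums. Of all genes, edgeR called 0.0% in each, and DESeq2 0.00928%, 0%, 0.173% and 0.471% in that order. At an unadjusted p under 0.05 were 1, 1, 3 and 7 members in the same order. These were 9.09%, 11.1%, 21.4% and 35.0% of members, beside 1.15%, 3.59%, 6.13% and 5.63% of genes.

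The remaining members were sparse or had other homes. By mean CPM, 29 of the 43 detected members were highest in HSC-like cells, Col4a3, Col9a2 and Col9a3 in cholangiocyte-like cells, Col13a1 and Col25a1 in endothelial cell-like cells and Col2a1 and Col17a1 in plasmacytoid DC-like cells. The HSC-like means are from 2 mice, both HFD+F+CCl4. Several placements rest on few UMIs, such as those of Col2a1 (2 UMIs in all), Col26a1 (3), Col28a1 (4), Col19a1 (9), Col22a1 (11) and Col10a1 (18), and Col20a1 had 5 UMIs in HSC-like cells. Shares in HSC-like cells were 80.0% for Col12a1, a FACIT chain of stretched tissue, 72.6% for Col5a1, 58.1% for Col5a2, 58.1% for Col8a1 and 54.02% for Col16a1. Col9a3 stood at 0.949 and 3.39 CPM in control and 0.350 to 0.814 CPM in NASH mice (edgeR log2 fold change −1.81 ± 0.58 in WD+F+CCl4, adjusted p = 0.0627).

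Genes whose products act on collagen were counted in 4 lists, to be read beside the 18.9% and 21.4% of all genes called in the respective models. Of 19 tested genes for folding and modification, edgeR called 4 higher in both models (Plod1 and Plod3, lysyl hydroxylases, P4ha1, a prolyl hydroxylase, and Colgalt1, a collagen galactosyltransferase). Log2 fold changes in the high-fat and the western diet model, given in that order from here, were 1.94 and 2.17 for Plod1, 1.58 and 1.67 for P4ha1, 1.36 and 1.80 for Plod3 and 0.98 and 1.00 for Colgalt1, with list medians of 0.65 and 0.10. Of 11 genes for cleavage and cross-linking, 2 rose (Lox at 6.13 and 5.03 and Loxl3 at 2.2004 and 1.67, lysyl oxidases that cross-link fibrils) and 1 fell (Adamts14, a procollagen N-proteinase, at −3.43 and −4.005), with medians of 1.44 and −0.28. Of 10 collagen receptors, Lair1, an inhibitory receptor of leukocytes, rose at 1.82 and 2.12, Itga2, an integrin chain, fell at −2.45 and −2.28, and Gp6, the platelet receptor, rose in HFD+F+CCl4 mice at 4.52, with medians of 0.17 and −0.13. Of 20 other matrix genes, Thbs1 rose at 4.11 and 5.01 and Ecm1 at 1.33 and 2.03, with medians of 1.56 and −0.16. The median of all genes was −0.01 and −0.06. These folds are over all kept cells, so the number of cells of each type is part of them. In endothelial cell-like cells edgeR called 0 genes of the 4 lists in either model, and 0 to 5 genes of each list had an unadjusted p under 0.05.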

How the data were processed

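Livers of 8 mice were profiled by 10x Chromium 3′ (V3) single-cell RNA-seq. The authors deposited 1 matrix of UMI counts for all libraries, whole and not normalized, made with Cell Ranger on GRCm38 (mm10) after bcl2fastq 2.20, and the suffix of each barcode named its library. Per the labels, GRCh38 was also named. Gene IDs matched GENCODE vM21 for all 55450 genes.

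Cells with over 500 genes and mitochondrial UMIs under 25% were kept. Counts were scaled, and 2000 variable genes without collagens, 30 principal components and 20 neighbours gave 20 Leiden clusters at resolution 0.42 (scanpy 1.11.5, leidenalg 0.10.2). A cluster was named when a marker list had a mean z-score of at least 0.5, a margin of 0.3 and 3 detected markers. These limits and the resolutions were set after the data were seen. Names were rebuilt here and may differ from those of the study. Doublets were kept, and an alternative left out the 7452 cells ranked highest by Scrublet's method (0.8% per 1000 barcodes). HSC-like cells were split with 1000 variable genes and endothelial cell-like cells with 1500.

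UMIs were summed per mouse and cell type and tested with edgeR 4.0.16 (quasi-likelihood, TMM, filterByExpr with a minimum of 10 counts) over all genes, with Benjamini-Hochberg adjustment at 0.05. All 8 mice shared 1 fit, and within a cell type mice entered with at least 20 cells and groups with at least 2 mice. Levels are CPM within the cells named. Mean levels of a type are over mice with at least 20 cells. The sums per mouse hold 5305581 to 63878061 UMIs. Poisson 95% intervals and the floor of 3 counts cover counting error only. Mice are separate animals, and 2 controls limit every test against them. The script was tested on simulated data. DESeq2 1.42.0 and other alternatives are given in the closing section. Each member was counted. Values in every mouse were given for the 12 members with most UMIs and for each member past the threshold, and other members were named as examples after their values were seen. Of the other lists, genes past the threshold were named. The members and lists were chosen with earlier results of these data known. Deviations of same-numbered mice of different groups correlated between −0.613 and 0.0526, which cannot decide whether they were paired.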

Additional observations from a re-analysis of the deposited data

Results flagged for a closer look

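Col14a1 over all kept cells moved away from control in opposite directions in the 2 models. Mean CPM was 18.0 higher in HFD+F+CCl4 than in control mice and differed by −2.44 in WD+F+CCl4 mice, and all 3 mice of each model lay on that model's side of both controls. Whether these effects against control differ was not tested apart from the direct comparison of the models, where Col14a1 differed by −3.27 ± 0.89 log2 (edgeR, not past the threshold after adjustment, and DESeq2, adjusted p = 0.0181). HFD+F+CCl4 replicate 1, at 52.9 CPM, gave most of the mean difference, and HSC-like cells held 73.9% of the gene's UMIs.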

How the results depend on the processing

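Of the counts of members called under the other settings, 240 stayed equal or close to the main count, 20 were higher and 24 were lower. Many of the 240 had no call in the main fit or in the alternative. Most of the changed counts were in contrasts where the main fit had called members. Over all kept cells DESeq2 called 10 members in HFD+F+CCl4 against control (2 by edgeR), 6 in WD+F+CCl4 (3 by edgeR) and 4 between the models (0 by edgeR). Without HSC-like cells it called 5 in HFD+F+CCl4 (2), beside 25.9% of all genes, and in macrophages 1 (0) and 2 (1) in the respective models, beside 9.80% and 11.1%. With no filter beyond 1 count, 9 and 5 members were called over all kept cells (9.31% and 10.4% of all genes), 5 and 1 in endothelial cell-like cells (3.38% and 3.03%), 10, 8 and 3 (between the models) in lymphocytes (8.99%, 10.5% and 1.74%), 2 in macrophages of WD+F+CCl4 mice (5.73%), and 1 in hepatocyte-like cells between the models (1.02%). Without plasmacytoid DC-like cells, chosen after seeing the data, 1 was called in HFD+F+CCl4 mice. Without the endothelial sub-cluster that carried monocyte markers, also chosen after seeing the data, 3 endothelial members were called in HFD+F+CCl4 mice, Col1a1, Col1a2 and Col6a3. For the settings chosen after seeing the data, the share of all genes called was not counted. The cause of these differences was not tested.

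The labels did not say whether same-numbered mice were paired. Deviations of same-numbered mice correlated between −0.613 and 0.0526. With 2 or 3 mice in a group, whose deviations sum to 0, such correlations cannot decide whether they shared a batch. A fit with the replicate block called 1 member in each model over all kept cells, 1 and 2 without HSC-like cells, and 0 in lymphocytes and 0 in macrophages of WD+F+CCl4 mice.

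Leaving out 1 mouse at a time gave 1 to 5 calls over all kept cells in HFD+F+CCl4 and 1 to 4 in WD+F+CCl4 mice, 1 to 3 and 1 to 5 without HSC-like cells, 0 to 2 in lymphocytes and 0 to 2 in macrophages of WD+F+CCl4 mice and 0 to 1 in hepatocyte-like cells. A group left with 1 control mouse is assumed to vary like the others. The share of all genes called was not counted for fits with a mouse left out or with the replicate block. Without control replicate 1, Col5a3 lost its WD+F+CCl4 call and Col15a1 its HFD+F+CCl4 call. Without control replicate 2, Col17a1, Col23a1 and Col15a1 lost theirs. Without HFD+F+CCl4 replicate 2 Col17a1 lost its HFD+F+CCl4 call, without WD+F+CCl4 replicate 1 Col23a1 lost its call, and without WD+F+CCl4 replicate 2 Col17a1 and Col23a1 did. Without HFD+F+CCl4 replicate 3, Col1a1, Col6a1 and Col6a3 were called as well, and without WD+F+CCl4 replicate 1, Col1a1 and Col1a2. Col18a1 in macrophages of WD+F+CCl4 mice ranged from −5.48 to 5.91 log2 and was reversed without control replicate 1. Col5a3 lost its call when more than 1000 genes per cell were required. Library size scaling moved the median of all genes from −0.01 to −0.11 in HFD+F+CCl4 and from −0.06 to −0.24 in WD+F+CCl4 mice, and the called members kept their direction. Over the members' fold changes under other settings, 591 kept the call or the lack of one, 48 lost a call and 19 gained one. A further 1, called in the main fit, was reversed. Changes of direction in values not called were not counted as reversed. With 1 mouse left out, Col4a1 over all kept cells ran from −1.51 to 1.25 log2 in HFD+F+CCl4 mice. All alternatives for HSC-like contrasts could not be run, as too few mice had enough cells.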

Other observations

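Some members came almost entirely from a single library or cell. Col6a4, a beaded filament chain, had 95 UMIs in control replicate 1, 2 in HFD+F+CCl4 replicate 1 and 0 in the other 6 mice. Col8a2, a short chain collagen best known from the cornea, had 18 UMIs in control replicate 1, 18 in HFD+F+CCl4 replicate 1, 2 and 3 in WD+F+CCl4 replicates 2 and 3 and 0 elsewhere. In granulocyte-like cells of WD+F+CCl4 replicate 3, 1 cell with 11988 UMIs, not called a doublet, held 142 of the 231 Col1a1 UMIs, 58 of 137 Col1a2 and 29 of 56 Col6a3 UMIs of that cell type. Col11a2, a fibrillar chain of cartilage, had its highest mean level in granulocyte-like cells, at 7.21 CPM. Monocyte-macrophage-like cells, 35010 of the 80474 kept cells, held 47.9% of its UMIs.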
